A study of Caenorhabditis elegans with 2 samples.

Results

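The genes described here encode 3 families of enzymes that modify foreign and waste compounds in the nematode Caenorhabditis elegans: the cytochrome P450s (cyp), the UDP-glucuronosyl and related glycosyl transferases (ugt) and the glutathione S-transferases (gst). Members were all protein-coding genes of the Ensembl WBcel235 annotation whose symbol is cyp-, ugt- or gst- followed by a number. This gave 185 of 19973 protein-coding genes, made up of 74 P450 genes, 67 ugt genes and 44 gst genes. The rule reads symbols only, so enzymes of the same chemistry with other names, such as the P450 daf-9 and the omega- and kappa-class glutathione transferases, are not members.

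ChIP-seq, the sequencing of DNA that comes down with an antibody, was done against AMA-1, the largest protein of the RNA polymerase II enzyme. The material was whole N2 worms, the standard wild-type strain, at the young adult stage. There is 1 group, with no treatment and 2 biological replicates; the worms are labelled as a pool of both sexes and of unknown exact age. The authors' final list held 1103 peaks, and it is the strongest stretch of a relaxed list of 30000 peaks called on both replicates together. The relaxed lists of replicate 1 (27847 peaks) and replicate 2 (30000 peaks) were read as well, and wherever the replicates were compared, replicate 2 was shortened to its 27847 strongest peaks. Relaxed lists include background: their lowest −log10 (q-value) was 0.639 in the pooled list, 0.55 in replicate 1 and 0.706 in replicate 2. A gene was said to hold a peak when the summit lay between 500 bp upstream of its annotated 5' end and its 3' end, and rank 1 is the strongest peak of a list. Read depth is unknown, no test was run, and the Wilson 95% intervals cover the counting of genes only. They treat genes as independent, although 93 members lie beside a relative of the same family. In whole animals, a gene transcribed in few cells and a gene with little polymerase in each cell cannot be told apart.

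P450s use haem iron and electrons from a reductase to put oxygen into lipophilic molecules, UGTs attach a sugar taken from a UDP-sugar, and GSTs attach glutathione or bind reactive products. The modified compounds are then more soluble and can be pumped out of the cell. In C. elegans many of these genes act in the intestine, and many are switched on by toxins or oxidative stress through factors such as SKN-1 and nuclear hormone receptors.

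In each list the GST family had the highest share of genes with a polymerase peak of the 3 families, although most of these counts are small. In the final list no P450 gene held a summit (0 of 74, interval up to 4.93%), 1 of 67 UGT genes did (1.49%, 0.264 to 7.98%) and 2 of 44 GST genes did (4.55%, 1.26 to 15.1%). The 3 families together had 3 of 185 (1.62%, 0.553 to 4.66%), against 3.18% of all protein-coding genes. Those 3 genes were gst-40, gst-9 and ugt-50. Without replicate 2, the 1103 strongest peaks of replicate 1 held 1 member, gst-1, and no UGT gene. The interval of the 3 families together includes the share of all genes in this short list, and the difference was not tested.

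The pooled relaxed list separated the families from the genome more clearly. It placed summits in 9 P450 genes (12.2%, 6.53 to 21.5%), 9 UGT genes (13.4%, 7.23 to 23.6%) and 12 GST genes (27.3%, 16.3 to 41.8%). Together 30 of 185 members held one (16.2%, 11.6 to 22.2%), against 37.3% of all protein-coding genes. The upper ends of the P450 and UGT intervals lay under the share of all genes, whereas the GST interval included it. The P450 and UGT intervals overlapped the GST interval in this list. Replicate 1 without replicate 2 raised the UGT count to 16.

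Each replicate gave the same order of the GST family against the others, with more members held in replicate 1. In replicate 1, 13 P450 genes (17.6%), 16 UGT genes (23.9%) and 15 GST genes (34.1%) held a summit. That is 44 members (23.8%, 18.2 to 30.4%), against 43.3% of all protein-coding genes. In replicate 2, 9 P450 genes (12.2%), 7 UGT genes (10.4%) and 11 GST genes (25%) did. That is 27 members (14.6%, 10.2 to 20.4%), against 34.7% of all protein-coding genes.

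**Figure D1:**
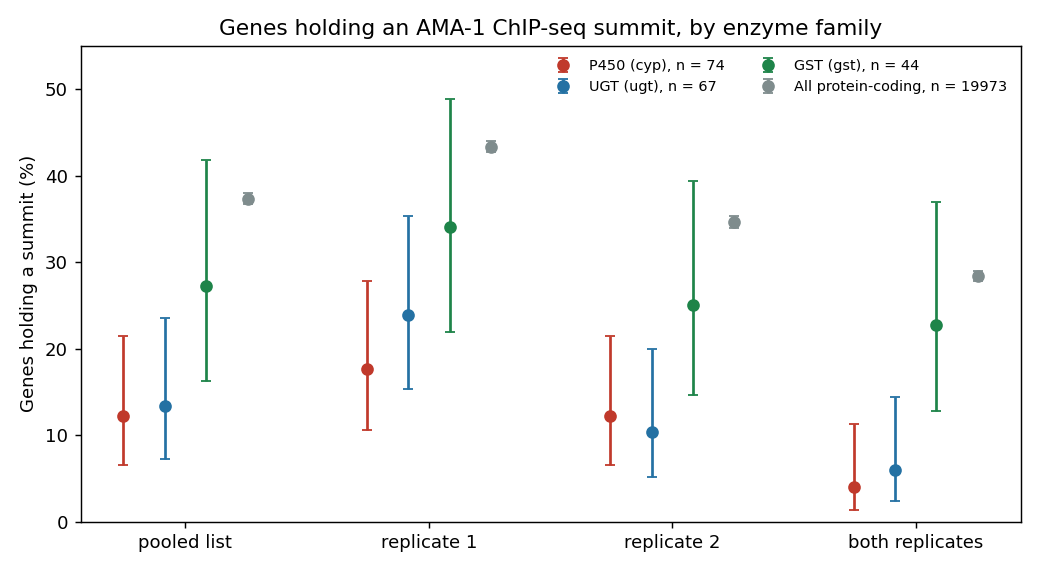
Share of genes holding an AMA-1 summit (per cent, with 95% Wilson intervals as bars) in each family and in all protein-coding genes, in the pooled list, in each replicate and in both replicates. In the pooled list the GST genes stand at 27.3%, above the P450 genes at 12.2% and the UGT genes at 13.4%, with all genes at 37.3%.

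The families also differed in what the replicates shared. Both replicates placed a summit in 10 of 44 GST genes (22.7%, 12.8 to 37%), in 3 of 74 P450 genes (4.05%, 1.39 to 11.3%) and in 4 of 67 UGT genes (5.97%, 2.35 to 14.4%). The GST interval does not overlap that of the P450 genes and overlaps the upper end of the UGT interval. All members together reached 17 (9.19%, 5.82 to 14.2%), against 28.4% of all protein-coding genes. Of the genes held in replicate 1, replicate 2 also held 66.7% in the GST family, 23.1% in the P450 family and 25% in the UGT family, against 65.5% over all protein-coding genes. Of the genes held in replicate 2, replicate 1 also held 90.9% in the GST family, 33.3% in the P450 family and 57.1% in the UGT family, against 81.9% over all protein-coding genes. In both directions the P450 and UGT shares were under those of all genes and the GST shares were not.

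The gap also depended on how far down the list one reads. Among the 5000 strongest pooled peaks, none of the P450 genes, 1 UGT gene (1.49%) and 6 GST genes (13.6%) held a summit, against 12.6% of all protein-coding genes. At 10000 peaks the shares were 1.35% for P450, 4.48% for UGT and 18.2% for GST genes, against 21.6% of all protein-coding genes. The GST share was therefore close to that of all genes in the strong part of the list, and the P450 and UGT shares came almost wholly from weaker peaks. The median rank of the best pooled summit was 16793 in the P450 genes that held one, 11832 in the UGT genes and 6648 in the GST genes, against 8164 over all protein-coding genes that held one.

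**Figure D2:**
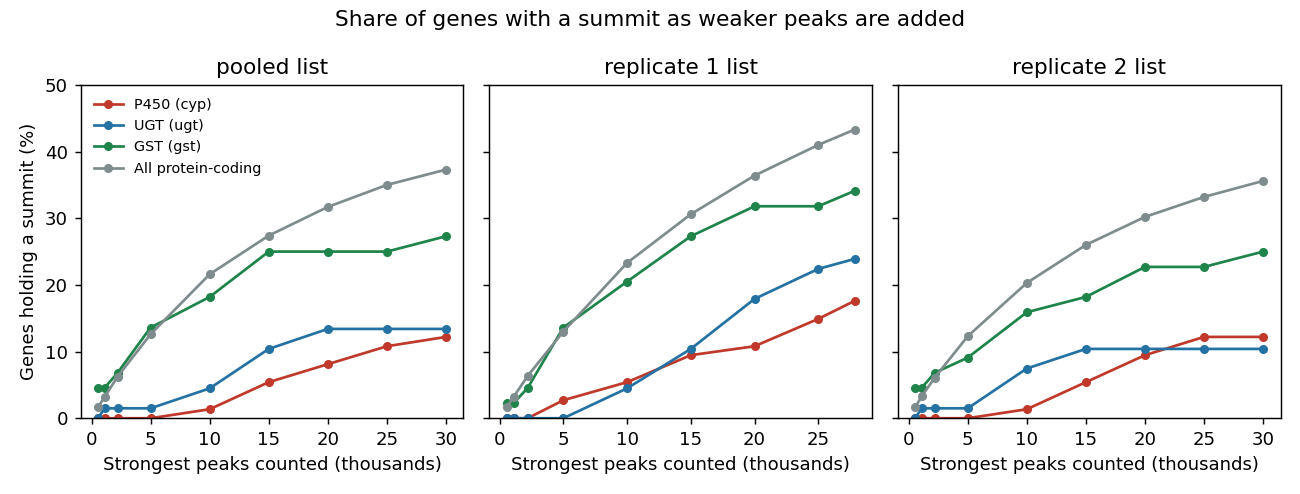
Share of genes holding a summit (per cent, vertical axis) among the strongest peaks, as the list is lengthened (horizontal axis, peaks in units of 1000), for each family and for all protein-coding genes, with 1 panel each for the pooled list, replicate 1 and replicate 2. In the pooled panel the GST line follows that of all genes at 5000 peaks (13.6% against 12.6%), while the P450 and UGT lines stay near 0 there.

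The strongest summit of any member was in gst-40, a glutathione transferase gene on chromosome IV (ce11, positions 760502 to 762419, plus strand). Its pooled summit had rank 149 with a signal value of 89.3, the authors' score for peak height, and lay at position 762245 in the coding sequence of the last exon, 1743 bp from the 5' end. The replicates differed widely in strength there: the summit had rank 10036 (signal value 5.3) in replicate 1 and rank 82 (84.7) in replicate 2. Both replicate summits lay within 35 bp of each other. The collagen gene col-103 runs toward gst-40 on the other strand and its annotated 3' end lies 168 bp from the pooled summit. ChIP-seq does not read the strand, so polymerase on the 2 genes cannot be told apart there.

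The next was gst-9, on chromosome II (positions 4891585 to 4893573, plus strand), with rank 521 and a signal value of 53.3 in the pooled list. Its summit lay 44 bp past the 5' end, in the first coding exon. In replicate 2 the gene's best summit had rank 333 (signal value 49.4) at 43 bp past the 5' end. In replicate 1 a summit at 51 bp past the 5' end had rank 7286 (6.46), and a stronger one, with rank 3465 (9.54), lay 454 bp upstream in the body of the neighbouring gene pgm-1. The sperm protein gene msp-33 lies inside gst-9 on the other strand, away from the summit.

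The only UGT gene in the final list was ugt-50, on chromosome X (positions 12691573 to 12695652, plus strand). Its pooled summit had rank 906 and a signal value of 43.4, and lay in coding sequence 630 bp past the 5' end. Replicate 2 had it at rank 889 (signal value 35.3), and replicate 1 had no summit anywhere in the gene. The microRNA gene mir-62 lies in an intron of ugt-50 on the same strand, starting 405 bp from the summit.

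The sequences at these 3 summits are printed because they are the only member positions in the authors' final list. Each is 101 bases of the RefSeq genome on the gene's own strand, 5' to 3', and the capitals mark the 11 bases centred on the summit. They are chrIV:762195-762295, chrII:4891579-4891679 and chrX:12692153-12692253 on ce11, in that order.
gst-40: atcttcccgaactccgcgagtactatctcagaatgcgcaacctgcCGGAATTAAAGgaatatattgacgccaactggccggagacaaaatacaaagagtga
gst-9: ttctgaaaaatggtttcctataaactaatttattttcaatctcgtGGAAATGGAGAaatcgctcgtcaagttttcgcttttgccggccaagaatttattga
ugt-50: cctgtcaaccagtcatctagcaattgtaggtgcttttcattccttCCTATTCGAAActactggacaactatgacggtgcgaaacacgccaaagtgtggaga
The gst-40 window ends in the stop codon of its gene, so the summit sits at the far end of the coding sequence, whereas the gst-9 window opens at the very start of its gene.

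Several GST genes held strong summits just outside the final list. gst-1, a pi-class enzyme on chromosome III (positions 9059331 to 9060181, plus strand), had pooled rank 1104, the first rank past the final list, with a signal value of 40.4. The summit lay 11 bp past the 5' end in the 5' UTR. It had rank 242 (signal value 28) in replicate 1 and rank 5494 (16.4) in replicate 2, so here replicate 1 was the stronger, the reverse of gst-40, gst-9 and ugt-50.

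gst-7, on chromosome II, had pooled rank 2220 at 120 bp past the 5' end, with rank 3281 in replicate 1 and rank 3735 in replicate 2. gst-36, on the X chromosome, had pooled rank 2444 in an intron 460 bp past the 5' end, while the best summits of the replicates lay elsewhere in the gene, at rank 4020 and 217 bp past the 5' end in replicate 1 and at rank 2004 and 561 bp, in coding sequence, in replicate 2. gst-20, on chromosome II, had pooled rank 4255 at 90 bp past the 5' end, with rank 2419 at 137 bp in replicate 1. In replicate 2 its summit at 97 bp had rank 13953, and a stronger one, with rank 10145, lay 1046 bp past the 5' end. Of these 3 genes gst-7 thus had its strongest summit near the same place in every relaxed list, and the other 2 did not. Further down came gst-19 (pooled rank 9041), gst-43 (9933), gst-8 (10243) and gst-13 (12573), each also held in both replicates. gst-43 is related to the zeta-class enzymes of tyrosine breakdown, and its window overlaps that of the coatomer gene copa-1. gst-8 and gst-43 had their best pooled summits upstream of the 5' end, at 120 bp and 223 bp, whereas the others had theirs inside the gene. gst-8 had no summit in its body in any list. Its pooled summit lies 234 bp past the 3' end of gst-7 on the same strand, so polymerase on the 2 genes cannot be told apart there.

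Of the 5 GST genes that were to be named whatever their values, gst-1 and gst-7 held summits and the other 3 held none. gst-4, the SKN-1 target whose promoter drives a widely used reporter of oxidative stress, had no summit in any list, and neither did gst-10, which acts on products of lipid peroxidation, or gst-38. Of the body of gst-10, 78.5% of 50-base windows occur elsewhere in the genome, so reads from it are hard to place. gst-10 was the only member past 50% on that measure. The 150 bases upstream of gst-4 (chrIV:10142075-10142224, plus strand) are printed with those of gst-1 (chrIII:9059181-9059330, plus strand), as an upstream region with SKN-1 core motifs and no summit in its gene beside one with neither SKN-1 core nor GATA motif and a summit at the 5' end. Capitals mark the SKN-1 core (GTCAT or ATCAT) and the GATA motif (TGATAA), searched on both strands.
gst-4: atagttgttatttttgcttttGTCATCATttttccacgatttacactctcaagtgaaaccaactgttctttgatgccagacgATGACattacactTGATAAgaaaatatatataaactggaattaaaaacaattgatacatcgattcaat
gst-1: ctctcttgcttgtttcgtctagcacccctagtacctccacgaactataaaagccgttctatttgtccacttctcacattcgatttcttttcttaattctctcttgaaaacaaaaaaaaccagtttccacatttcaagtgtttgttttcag
The gst-4 stretch holds 3 matches to the SKN-1 core, of which 2 overlap, and 1 GATA motif. A match describes letters only and says nothing of whether a factor binds there.

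**Figure D3:**
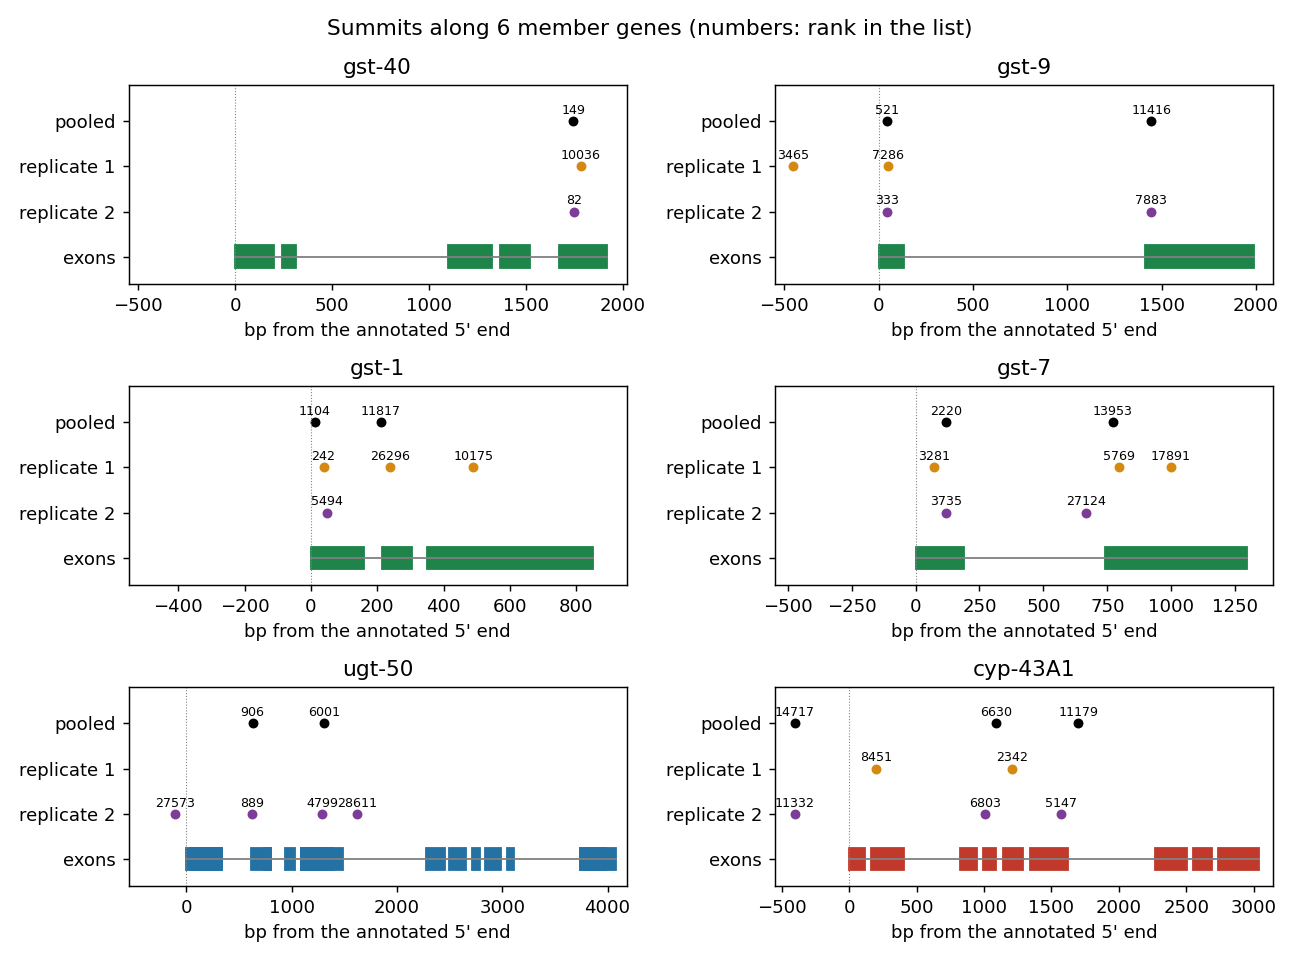
Summits along 6 member genes, drawn by distance in bp from the annotated 5' end (horizontal axis), with 1 line each for the pooled list, replicate 1, replicate 2 and the exons. The printed number is the rank of the peak in its list: gst-40 has its summits in the last exon, gst-9, gst-1 and gst-7 have their best pooled summit at the 5' end, and ugt-50 has none in replicate 1.

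The P450 genes with pooled summits came mostly from small groups, taken as genes with the same number in the symbol. cyp-43A1, on the X chromosome (positions 5714522 to 5717562, plus strand), had the strongest, with pooled rank 6630 and a signal value of 18.2. Its best summit had rank 2342 (11.5) at 1206 bp past the 5' end in replicate 1 and rank 5147 (16.9) at 1571 bp in replicate 2. cyp-36A1, known from work on hypoxia signalling and egg-laying behaviour, had 5 pooled summits, the best at rank 10081. Its best rank was 5425 in replicate 1 and 13534 in replicate 2, at different places in the gene, although another pair of its summits lay 11 bp apart. cyp-44A1, the mitochondrial-type P450, had pooled rank 21988 and was held in both replicates, at ranks 14281 and 19637. No other P450 gene was held in both.

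The P450 groups of 5 or more genes with the same number were almost empty in the pooled list. The cyp-13 genes had 0 of 13, the cyp-35 genes 0 of 10, the cyp-34 genes 0 of 8, the cyp-25 genes 0 of 5, the cyp-14 genes 1 of 5 and the cyp-33 genes 1 of 18 with a pooled summit, against 37.3% of all protein-coding genes. The cyp-33 gene was cyp-33C7, at rank 10287, which replicate 2 had at rank 10861 and replicate 1 lacked. In replicate 1, 3 of 18 cyp-33 and 2 of 8 cyp-34 genes held a summit, against 43.3% of all protein-coding genes. The cyp-13, cyp-14, cyp-25 and cyp-35 genes had none there. In replicate 2 the cyp-13, cyp-14 and cyp-33 genes had 1 each and the other large groups none, against 34.7%. cyp-35A2, a xenobiotic-induced gene also tied to fat storage, and cyp-29A3 and cyp-33E2, which make signalling lipids from polyunsaturated fatty acids, had no summit in any list. The same held for cyp-13A7, cyp-14A3, cyp-25A2, cyp-29A2, cyp-35B1 and cyp-37B1. cyp-14A5, on chromosome V, was the cyp-14 gene, and had its best pooled summit at rank 16793, 97 bp upstream of the 5' end, and was held in replicate 2 alone.

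The cyp-31A genes, 2 of which (cyp-31A2 and cyp-31A3) are needed for the lipid layer of the eggshell, showed summits in replicate 1 and not in replicate 2. cyp-31A5 had rank 2896 there (signal value 10.4), in its 3' UTR, cyp-31A2 had rank 22595 and cyp-31A3 rank 25458. With 1000 bp upstream in place of 500 bp, the cyp-31A3 rank was 9926. That wider window reaches into memi-1 on the other strand, whose 5' end lies 647 bp from the cyp-31A3 summit. Polymerase on the 2 genes cannot be told apart there. In the pooled list cyp-31A5 had rank 17756 and the other 2 had no summit. A list of 15 germline genes, such as the germ granule gene pgl-3, differed in the same direction: replicate 1 held 15 and replicate 2 held 2, against 43.3% and 34.7% of all protein-coding genes. The part of that difference in the cyp-31A result was not tested.

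Among the UGT genes, summits were weak apart from ugt-50. ugt-12 had pooled rank 7906, ugt-13 rank 9549, ugt-25 rank 11617, ugt-66 rank 11832, ugt-58 rank 11836 and ugt-65 rank 12960. Only ugt-12, ugt-25, ugt-58 and ugt-65 were held in both replicates. Their replicate ranks were close: ugt-25, for example, had rank 7143 in replicate 1 and rank 7035 in replicate 2. The summits behind those ranks were not always at the same place. In ugt-25 they lay 3481 bp past the 5' end in replicate 1 and 158 bp in replicate 2. In ugt-58 they lay at 2169 bp and 719 bp. Among all summits of the 2 replicates, the nearest pair lay 547 bp apart in ugt-25 and 597 bp apart in ugt-58. ugt-13 and ugt-66 had summits in replicate 2 alone, at ranks 6979 and 5682. ugt-49, ugt-59 and ugt-23 had them in replicate 1 alone, and ugt-1, ugt-22, ugt-62 and ugt-63 had none in any list. The best replicate 1 summits of ugt-23, ugt-59 and ugt-25 lay 123 bp from nra-3, 89 bp from gkow-1 and 164 bp from mlst-8. Polymerase on each of these genes and its neighbour cannot be told apart there.

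**Figure D4:**
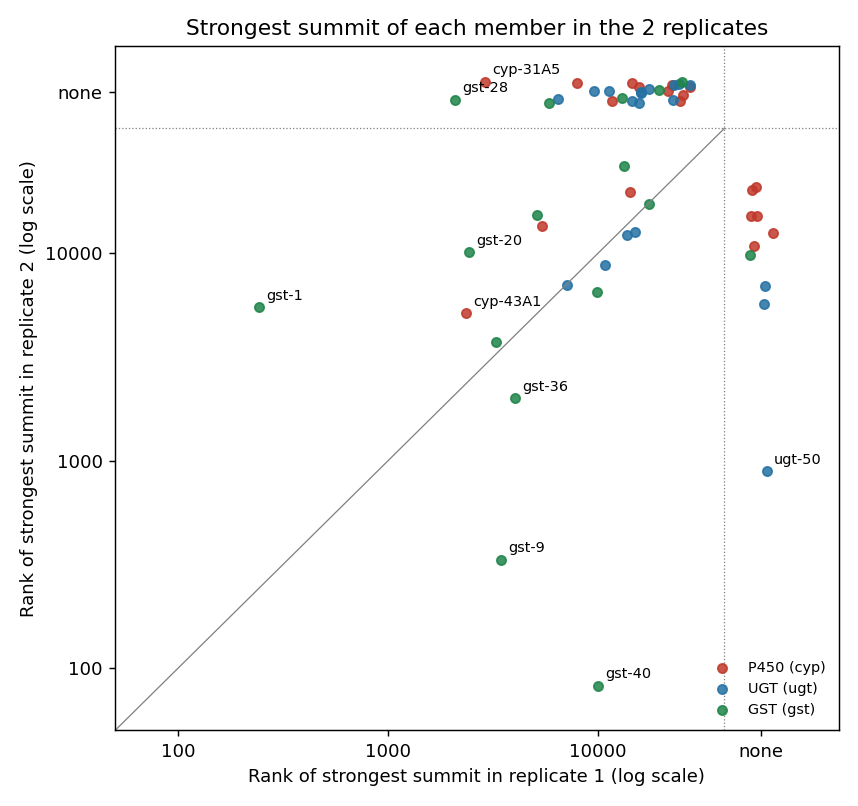
Rank of the strongest summit of each member in replicate 1 (horizontal, log scale) and replicate 2 (vertical, log scale), with 1 point per gene and genes lacking a summit in a replicate set apart past the dotted lines. The 17 members held in both replicates include 10 GST genes, and gst-40 (10036 and 82) lies farthest from the diagonal; the replicate 1 point of gst-9 is its upstream summit.

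Of all 185 members, 54 held a summit in at least 1 of the lists (19 P450, 19 UGT and 16 GST genes) and 131 held none. Neither replicate held 70.8% of members, against 50.4% of all protein-coding genes. Replicate 1 alone held 27 members (14.6%), against 14.9% of all protein-coding genes, and replicate 2 alone held 10 (5.41%), against 6.27%. Over the 3 families together, the shares seen in a single replicate were thus near those of all genes, and the share seen in both was lower. In the GST family alone the share was 22.7% in both replicates, 11.4% in replicate 1 alone and 2.27% in replicate 2 alone, against 28.4%, 14.9% and 6.27% of all protein-coding genes. In the 17 shared genes the nearest summits of the replicates lay a median of 88 bp apart, against 74 bp over all protein-coding genes, and the 10 GST genes had a median of 47 bp. All 10 of those GST genes had summits within 200 bp of each other, as did 14 of 17 members (82.4%), against 74.8% over all protein-coding genes. The closest were gst-9 at 8 bp and gst-1 at 9 bp.

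P450 and UGT genes had a longer median length than all genes and held fewer summits per kb. The median gene length was 2317 bp for P450, 2519 bp for UGT and 1306 bp for GST genes, against 2027 bp over all protein-coding genes. Per kb of window, the pooled list had 0.0884 summits in P450 genes, 0.0838 in UGT genes and 0.278 in GST genes, against 0.343 over all protein-coding genes. Among genes from 2000 to under 3000 bp, 4 of 40 P450 genes (10%) and 5 of 45 UGT genes (11.1%) held a pooled summit, against 37% of all protein-coding genes of that length. At 3000 bp and over, 4 of 18 P450 genes (22.2%) and 3 of 17 UGT genes (17.6%) did, against 51.9% of all protein-coding genes. Lengths are not matched in that open class. The longest gene is 6082 bp for P450, 11954 bp for UGT and 102756 bp for all protein-coding genes. The GST genes showed no even pattern. Those under 1000 bp held one in 4 of 13 cases (30.8%), against 26.1% of all genes of that length. From 1000 to under 1500 bp the count was 2 of 18 (11.1%), against 27.4%, and from 1500 to under 2000 bp it was 6 of 10 (60%), against 30.9%.

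Member summits lay in coding sequence more often than those of all protein-coding genes. How much of each window is coding sequence was not measured, so the part of gene structure in this difference was not tested. In the pooled list 33 of 62 member summits (53.2%) were in coding sequence, against 34% over all protein-coding genes, and 18 (29%) were in introns, against 39.5%. The replicates gave 60% of member summits against 38.9% of all in replicate 1, and 48.4% against 32.1% in replicate 2. By position, 24 of the 62 (38.7%) lay in the first of 3 equal parts of the gene body, against 32.7% over all protein-coding genes, and 7 (11.3%) lay upstream, against 16.8%. The GST genes had 11 of 23 (47.8%) in that first part. Several summits can come from 1 gene, so these are not independent. Of the 62, 57 lay in the window of no other protein-coding gene.

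Many members sit beside a relative of the same family, and such genes held fewer summits. Of 93 members in an uninterrupted run of at least 2 genes of the same family, 8 held a pooled summit (8.6%), against 22 of 92 single members (23.9%) and 37.3% of all protein-coding genes. Within the families these shares rest on 1 P450, 2 UGT and 5 GST genes held in runs, and the differences were not tested: 2.63% in runs against 22.2% of single genes for P450, 6.45% against 19.4% for UGT, and 20.8% against 35% for GST genes. The largest run, 9 GST genes on chromosome II from 13608154 to 13630887, held summits in gst-20, gst-24 and gst-19. The run of 7 cyp-13A genes on chromosome II from 9783384 to 9807569 held none in the pooled list, and the run of 7 UGT genes on chromosome V from 4892588 to 4911399 held one, in ugt-13. The run of 6 GST genes on chromosome II from 15163817 to 15174965, which includes gst-28, had summits in 3 of its genes in replicate 1 and in none in the pooled list or in replicate 2. Over the 3 families together, repeated sequence was not more common than in all genes. Of the members, 17 (9.19%) had over 10% of their 50-base windows elsewhere in the genome, against 11.3% of all protein-coding genes. By family the shares were 12.2% for P450, 7.46% for UGT and 6.82% for GST genes.

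Chromosome V holds 92 of the 185 members (49.7%), against 25% of all protein-coding genes, and its genes held fewer summits than those of the other chromosomes. There 7 of 92 members held a pooled summit (7.61%), against 24.5% of all protein-coding genes of the chromosome. On the other chromosomes together 23 of 93 did (24.7%), against 41.6% of all protein-coding genes. By family, away from chromosome V, the shares were 15.2% for P450, 24% for UGT and 34.3% for GST genes. The order of the families and their place under the share of all genes were thus the same with chromosome V left out. All 12 GST genes with a pooled summit lay off chromosome V, where the family has 9 genes. In the centres of the chromosomes, taken as the middle 40%, 20.8% of members held one, against 44.8% of all protein-coding genes. On the arms 13% did, against 31.2%. The families differed in this. In the centres the shares were 16.7% for P450, 12.5% for UGT and 53.8% for GST genes (7 of 13). On the arms they were 10%, 14.8% and 16.1%. The GST share in the centres was thus above that of all genes, and the UGT share was not higher there than on the arms.

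**Figure D5:**
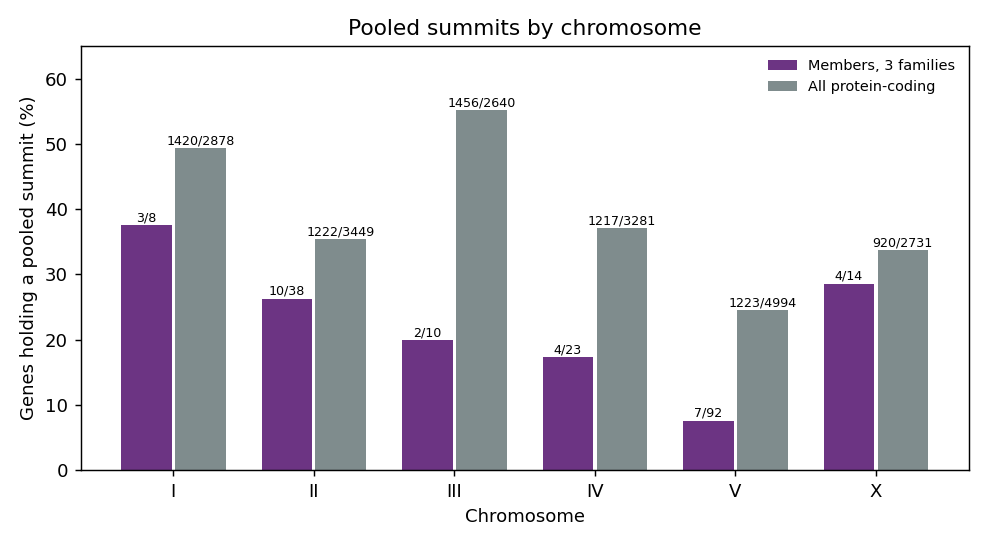
Share of genes holding a pooled summit (per cent, bars from 0) on each chromosome, with the members of the 3 families left of all protein-coding genes and the counts printed above each bar. The members' bar is the lower on all 6 chromosomes, with 7 of 92 on chromosome V and 2 of 10 on chromosome III.

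Partner enzymes and regulators of detoxification held summits more often than the 3 families. Export pumps were near the families in the pooled list and above them in replicate 1. All these gene lists were chosen with earlier results in view. Of 34 partner genes of oxidation and conjugation, 25 held a pooled summit (73.5%) and 22 were held in both replicates, against 37.3% and 28.4% of all protein-coding genes. That list includes the genes alh-1 to alh-13. It also includes the P450 daf-9 and the omega- and kappa-class glutathione transferases, which are not members by symbol. Its median gene length is 2948 bp, against 2273 bp for members and 2027 bp over all protein-coding genes. emb-8, the reductase that feeds electrons to P450s, had pooled rank 3912, with ranks 3326 and 2201 in the replicates. In glutathione metabolism, gss-1 (glutathione synthetase) had pooled rank 2149, gsr-1 (glutathione reductase) rank 5808 and gcs-1 (the first step of synthesis) rank 15507. The aldehyde dehydrogenase genes alh-8, alh-3 and alh-4 were in the final list, at ranks 690, 946 and 1054.

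Of 18 genes for regulators of detoxification, 16 held a pooled summit (88.9%) and 6 were in the final list, against 37.3% and 3.18% of all protein-coding genes. The 6 were atfs-1 at rank 214, wdr-23 at rank 371, skn-1 at rank 458, hif-1 at rank 463, daf-16 at rank 936 and nhr-114 at rank 943. skn-1 encodes the main activator of gst-4, and wdr-23 a factor that targets SKN-1 for degradation. The aryl hydrocarbon receptor gene ahr-1 had a summit in replicate 1 alone, and elt-2, the intestinal GATA factor, had none. These genes are long, with a median of 4942 bp. The export pumps (pgp, mrp and haf genes) are longer still, with a median of 6207 bp, yet 6 of 30 (20%) held a pooled summit, near the 16.2% of the 3 families and under the 27.3% of the GST genes. Of these 30 pumps, 15 were held in replicate 1 and 6 in replicate 2. The shares there were 23.8% and 14.6% of members, and 43.3% and 34.7% of all protein-coding genes. None of the pumps was in the final list.

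Since many members act in the intestine, genes that mark it were read beside them. Of 14 annotated intestinal genes, 6 held a pooled summit (42.9%), 10 were held in replicate 1 and 3 in replicate 2, against 37.3%, 43.3% and 34.7% of all protein-coding genes. The yolk protein gene vit-6 had rank 153 in replicate 1 and vit-2 rank 376, and neither had a summit in replicate 2. Replicate 1 also held more members than replicate 2 did (44 and 27), as it did over all protein-coding genes (8657 and 6925). Whether these differences are linked was not tested.

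By the GATA motif the families ranked differently than by pooled summits. By the SKN-1 core the order was the same, but it rests on close values. Pooled summits were in 12.2% of P450 and 13.4% of UGT genes, and replicate 2 reversed these (12.2% and 10.4%). The SKN-1 core shares of UGT and GST genes were also close. Within 250 bp upstream, the GATA motif TGATAA, on either strand, was present in 36.5% of P450, 58.2% of UGT and 27.3% of GST genes, against 26.8% of all protein-coding genes. The family with the highest share of this motif, UGT, was thus not the one with the highest share of summits. Of the 17 members held in both replicates 5 (29.4%) had the motif, against 45.8% of the 131 held in neither. The SKN-1 core (GTCAT or ATCAT) was present in 62.2% of P450, 76.1% of UGT and 77.3% of GST genes, and in 70.8% of all members, against 62.4% of all protein-coding genes. It was present in 15 of the 17 members held in both replicates (88.2%), against 71% of the 131 held in neither. For both motifs these 2 groups differ in family make-up, since GST genes are 10 of the 17 and 28 of the 131. The part of family make-up in these differences was not tested. The aryl hydrocarbon receptor core CACGC was present in 11.4% of members, against 16.4%. Annotated 5' ends of trans-spliced genes are often the splice site, so these windows can miss a promoter.

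The gene of the immunoprecipitated protein itself, ama-1, had pooled rank 1827, with rank 5363 in replicate 1 and rank 2048 in replicate 2, which places it above every P450 gene in the pooled list.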

How the data were processed

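Peak lists from AMA-1 ChIP-seq of 2 biological replicates in 1 group were analysed. Per the README deposited with each sample, the authors called relaxed peaks per replicate and on both together against a control alignment, and derived the final list from these by the irreproducible discovery rate procedure. Which aligner and peak caller made them is not given in the sources used here. The control library and 4 lists on build ce10 were not used. The signal value deposited for each peak is a score from the authors' caller. Its scale differs between lists, so peaks were ranked by it within a list. The deposited −log10 (q-value) was used as a threshold in 1 alternative. The deposited summit offset gave the summit position (1-based).

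Summits on ce11 were placed on genes of Ensembl release 115 (WBcel235), whose coordinates are those of ce11. Sequences and repeats were read from the RefSeq genome: a gene's repeat share is the per cent of its 50-base windows that occur elsewhere on either strand. Members, gene lists and choices were made with earlier results of these data known. Genes named were members in the final list, the 10 strongest pooled members of each family and the 3 strongest of each replicate. A fixed set of well-studied members and members with over 50% repeats were named too (48 in all). Members of gene runs and of P450 number groups, and other members named in the text, were chosen after seeing their values. The alternatives covered other windows, list lengths, overlap rules, repeat limits and each replicate alone. Placement was tested on simulated data: of 200 planted genes, 200 were recovered among 19973. Tables were handled with pandas 2.3.3 and numpy 2.4.6 in Python 3.11.15, intervals came from scipy 1.17.1, and plots were drawn with matplotlib 3.10.9.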

Additional observations from a re-analysis of the deposited data

How the results depend on the processing

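Of 88 recomputed counts of members, 72 stayed within 1.5 times the value reported and 16 did not. With the pooled list limited to peaks at its highest q-value, 7 members held a summit in place of 30 (P450 0, UGT 1, GST 6). With the 5000 strongest peaks of each replicate, 3 members were held in both in place of 17 (P450 0, UGT 0, GST 3). With the list cut to its stronger 50%, 4 P450 genes held a pooled summit and 0 UGT genes a final one. Leaving out members with over 10% repeats left 1 GST gene in the final list, and requiring replicate summits within 200 bp left 2 UGT genes. In lists of 1 replicate cut to the same length, final-list members ranged from 1 to 3 (P450 0, UGT 0 to 1, GST 1 to 2) and pooled-list members from 27 to 44 (P450 9 to 13, UGT 7 to 16, GST 11 to 15). Of the best ranks of named genes, 5 of 71 moved with the gene body only (gst-43 in 3 lists, gst-9 and ugt-59). With 1000 bp upstream 5 of 77 moved (cyp-31A2, cyp-31A3, gst-43, gst-8 and ugt-12). The gene body alone left no summit in gst-8 (pooled and both replicates), cyp-14A5 (pooled and replicate 2) or ugt-23 (replicate 1). Those lost ranks are not among the 71. No paired analysis was possible because there is 1 group. Depth is unknown, so a gene without a summit may hold polymerase that these libraries could not show.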
